A study of Rattus norvegicus with 28 samples.

Results

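The 10 genes described here, Slc1a2, Slc1a3, Glul, Aqp4, Gja1, Gjb6, Aldh1l1, Aldoc, S100b and Ndrg2, are genes of resting astrocytes. Among them are transporters, channels and enzymes by which these cells keep the extracellular space of the brain in order. The 10 genes were taken by name, as every non-control probe of the rat gene expression array whose accession was matched to one of these symbols. The array carried 16 such probes out of 30367, and all 16 were among the 17322 kept for testing, which means that no array of at least 1 group had them below background. Where a gene had several probes, the brightest is called the main probe and the others carry a number, as in Aqp4 probe 3.

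RNA came from the whole hippocampus of 14 adult male Sprague-Dawley rats, each measured on 1 Agilent array. Sham rats (n = 2) had sham surgery, and TBI rats (n = 3) had a parasagittal fluid-percussion brain injury. The TBI+Imipramine, TBI+Prozac (fluoxetine) and TBI+Zoloft (sertraline) groups (n = 3 each) had the same injury and received the named antidepressant 1 h after it. All hippocampi were taken 24 h after surgery. No group had a transgene or a deletion, and no sham-injured rats were given a drug.

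Astrocytes clear glutamate from the synapse through the transporters GLT-1 (Slc1a2) and GLAST (Slc1a3) and turn it into glutamine with glutamine synthetase (Glul). They take up and move water through aquaporin-4 (Aqp4), which sits in the endfeet on blood vessels, and they are joined into a network by gap junctions of connexin 43 (Gja1) and connexin 30 (Gjb6). After brain injury astrocytes become reactive and make more of the intermediate filament proteins GFAP and vimentin. These are known roles and not results of these arrays.

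Values below are log2 levels, the log2 of a probe's processed signal divided by that array's 75th percentile over its probes above background, so that a level of 0 is a signal equal to that percentile. A log2 difference of 1 is a doubling. Levels of different probes cannot be set against each other, because probes bind with different strength. Differences were tested with limma across all kept probes with Benjamini-Hochberg adjustment, and a probe is said to have risen or fallen when its adjusted p was under 0.05. Spread between groups of 2 and 3 rats sets the precision throughout. In whole tissue, fewer astrocytes and less RNA per astrocyte cannot be told apart.

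Each of the 10 genes was above background on all 14 arrays on its main probe. Markers of neurons (7 of 8 listed genes on the array) and oligodendrocytes (6 of 6) were likewise above background on every array of every group, except for 1 neuronal marker in TBI. Of the 3 slides, 1 carried the TBI group together with TBI+Prozac replicate 1, another carried the remaining 8 treated rats, and the last carried only Sham and was scanned on a different day. Slide and injury therefore cannot be told apart in any comparison with Sham. No imipramine or Zoloft array shared the TBI slide. Against TBI, slide and these drugs can be separated only through the 1 Prozac array on the TBI slide. TBI replicate 1 stood apart: it had 14676 probes above background against 15846 to 18196 on the other arrays, and its scaling percentile was 2228 against 1302 to 2053. It gave the lowest level of all 14 arrays for 8 of the 10 genes. The differences of the 10 genes between TBI and Sham are therefore given without it as well. For other genes and marker lists they are given only with it.

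The first comparison asks whether the homeostatic genes were lower 24 h after injury. In TBI against Sham, 9 of the 10 main probes had a lower mean after injury and 1 a higher mean, with a median log2 difference of -0.45. The median over all kept probes was 0.00. In limma's test 0 of the 10 passed the adjusted threshold, which 16.6% of all kept probes passed. At an unadjusted p under 0.05 there were 3, all lower (Gja1, Aldh1l1 and Aldoc), and 15.1% of all probes were lower at that level. The 3 TBI arrays lay wholly below both Sham arrays for 5 of the 10 genes, against 21.4% of all probes. Without TBI replicate 1 the median difference of the 10 genes was -0.23, and 0 passed the threshold.

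**Figure D1:**
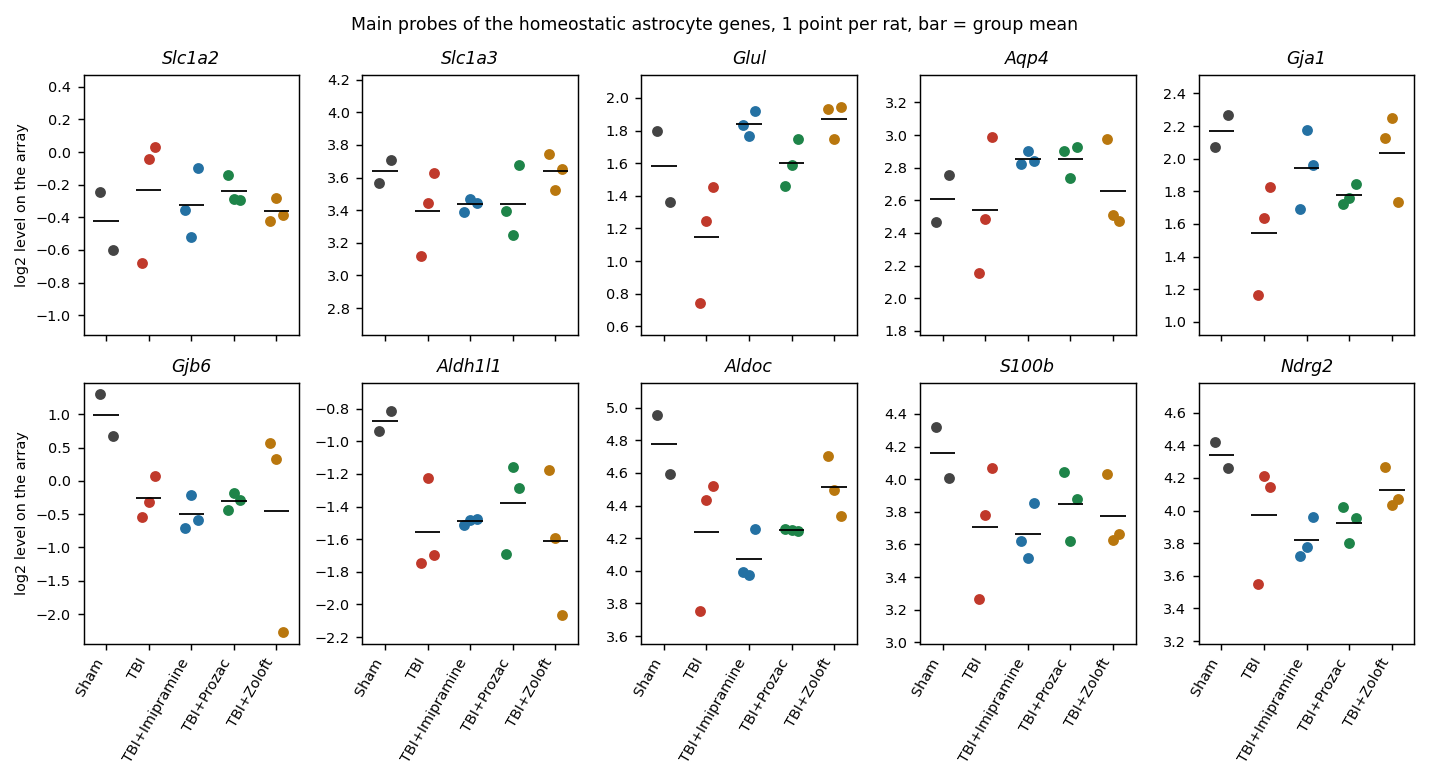
Log2 level of the main probe of each gene on each array (vertical axis, each panel with its own range), by group (horizontal axis), with 1 point per rat and a bar at the group mean. Every injured rat lies below both Sham rats for Gjb6 and Aldh1l1, whereas TBI overlaps Sham for Slc1a2 and Aqp4.

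For glutamate clearance, the gene for GLT-1 did not differ beyond the spread between rats. Slc1a2, the main glutamate transporter of the forebrain, had levels of -0.24 and -0.60 in Sham and of -0.68, -0.04 and 0.03 in TBI. The TBI values enclosed both Sham values. The log2 difference was 0.19 (SE 0.21, 95% interval -0.26 to 0.65, limma adjusted p = 0.575), and the second Slc1a2 probe gave 0.09 (SE 0.23, limma adjusted p = 0.824). These were 0.42 and 0.39 without TBI replicate 1, and leaving out any other 1 of the 5 rats moved the main probe between 0.01 and 0.37. In the drug groups Slc1a2 lay between -0.52 and -0.10, inside the range of the TBI rats.

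Slc1a3, the glutamate transporter that astrocytes also make early in life, had 2 probes that went opposite ways. On the main probe it stood at 3.57 and 3.71 in Sham and at 3.12, 3.45 and 3.63 in TBI, a log2 difference of -0.24 (SE 0.17, limma adjusted p = 0.361). On Slc1a3 probe 2 the levels were -2.78 and -2.80 in Sham and -2.22, -1.94 and -1.78 in TBI. All 3 injured rats were above both Sham rats on that probe. Slc1a3 probe 2 rose by 0.81 (SE 0.20, limma adjusted p = 0.016). With the mean of the gene's probes in place of the main probe, the Slc1a3 difference turned from -0.24 to 0.29. The main probe gave -0.10 and Slc1a3 probe 2 gave 0.93 without TBI replicate 1. The call for Slc1a3 probe 2 was lost when either Sham rat was left out (adjusted p of 0.0825 and 0.0928).

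Glul, the enzyme that turns glutamate into glutamine, was at 1.80 and 1.36 in Sham and at 0.74, 1.25 and 1.46 in TBI. One TBI rat lay inside the Sham range and the other 2 below it. The log2 difference was -0.43 (SE 0.20, limma adjusted p = 0.167), and it was -0.23 without TBI replicate 1, -0.22 without Sham replicate 1 and -0.65 without Sham replicate 2.

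Water transport showed the same kind of split between probes. Aqp4 had levels of 2.47 and 2.75 in Sham and of 2.15, 2.48 and 2.99 in TBI on its main probe, and the TBI values again enclosed the Sham values. The difference of -0.07 (SE 0.22, 95% interval -0.55 to 0.42, limma adjusted p = 0.871) became 0.13 without TBI replicate 1, while leaving out any other 1 rat gave -0.29 to 0.08. Aqp4 probe 3 was at -4.11 and -4.05 in Sham and at -3.35, -2.89 and -2.44 in TBI. This probe rose by 1.19 (SE 0.27, limma adjusted p = 0.0124), with all 3 TBI rats above both Sham rats. Aqp4 probe 2 gave 0.39 (SE 0.37, limma adjusted p = 0.513), with overlapping groups and a range of 0.03 (without TBI replicate 3) to 0.67 (without TBI replicate 1) when 1 rat was left out. For Aqp4 probe 3 the difference was 1.42 without TBI replicate 1. Leaving out either Sham rat ended the call for Aqp4 probe 3 as well (adjusted p of 0.0783 and 0.0664), and normexp background correction reduced its difference to 0.67 (limma adjusted p = 0.0471).

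The 2 probes that rose were the dimmer ones of their genes. Aqp4 probe 3 averaged -4.08 in Sham and Slc1a3 probe 2 averaged -2.79, both well above background on every array. Their positions in the transcripts are not given in the files, and whether they measure another transcript form was not tested.

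**Figure D2:**
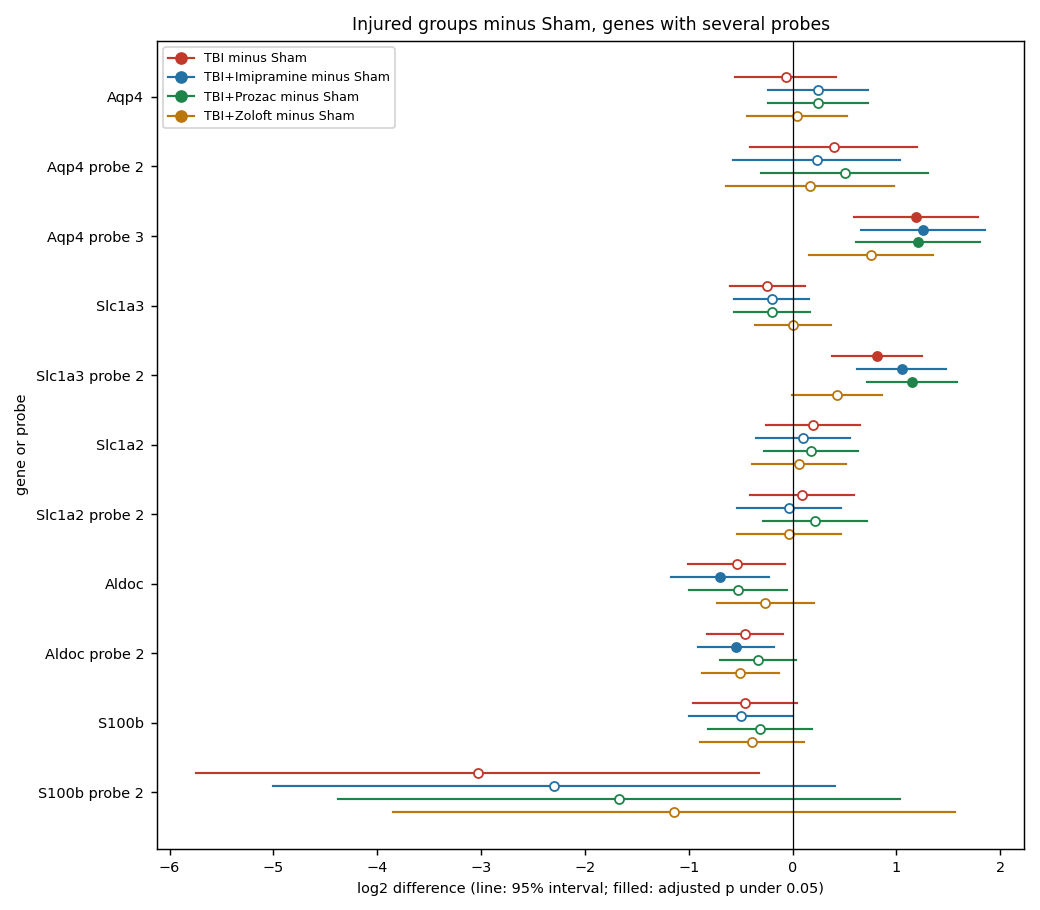
Log2 difference from Sham (horizontal axis) of each probe of the 5 genes with several probes (vertical axis), for TBI and the 3 drug groups, with 95% intervals. Filled points passed an adjusted p of 0.05: Aqp4 probe 3 and Slc1a3 probe 2 did so upward in TBI, TBI+Imipramine and TBI+Prozac, and both Aldoc probes downward in TBI+Imipramine.

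Both astrocyte connexins had lower means after injury. Gja1 was at 2.07 and 2.27 in Sham and at 1.16, 1.64 and 1.83 in TBI, so that every TBI rat was below both Sham rats. Its log2 difference was -0.63 (SE 0.21, 95% interval -1.09 to -0.16), at a limma adjusted p of 0.0658, the smallest of the 10 main probes. It passed the threshold when arrays were scaled by quantile normalization (adjusted p = 0.0264), by the 75th percentile of all probes (0.0245) or of the probes above background on all arrays (0.038), in the authors' own table (0.025) and with slide as a random block (0.0429). Without TBI replicate 1 it was -0.44 (adjusted p = 0.146), and without TBI replicate 3 it was -0.77 (adjusted p = 0.0359).

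Gjb6 had the lowest mean difference among the main probes, with levels of 1.30 and 0.67 in Sham and of -0.55, -0.31 and 0.08 in TBI. The groups did not overlap, with SDs of 0.45 in Sham and 0.32 in TBI. The difference was -1.24 (SE 0.62, 95% interval -2.60 to 0.11, limma adjusted p = 0.197), and -1.10 without TBI replicate 1. The SE comes from a spread shared by all 5 groups, which includes the SD of 1.57 in TBI+Zoloft.

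Of the enzymes, Aldh1l1 (10-formyltetrahydrofolate dehydrogenase, a pan-astrocyte marker) stood at -0.94 and -0.81 in Sham and at -1.75, -1.23 and -1.70 in TBI, a log2 difference of -0.68 (SE 0.24, limma adjusted p = 0.0778) with no overlap. Aldoc (aldolase C, a glycolytic enzyme) was at 4.95 and 4.60 in Sham and at 3.75, 4.44 and 4.52 in TBI, a difference of -0.54 (SE 0.22, limma adjusted p = 0.111). Here too the TBI rats were below both Sham rats, although TBI replicate 3 lay close to the lower one. Aldoc probe 2 differed by -0.46 (SE 0.17, limma adjusted p = 0.0878). Without TBI replicate 1 the differences were -0.59 for Aldh1l1, -0.30 for Aldoc and -0.28 for Aldoc probe 2.

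S100b (a calcium-binding protein that oligodendrocytes can make as well) was at 4.32 and 4.01 in Sham and at 3.27, 3.78 and 4.07 in TBI, a difference of -0.46 (SE 0.23, limma adjusted p = 0.201) with overlapping groups. It was -0.24 without TBI replicate 1 and -0.30 without Sham replicate 1. Its dim second probe was at -2.87 and -3.61 in Sham and at -7.60, -5.32 and -5.90 in TBI. That probe was below background on TBI replicate 1 and on TBI+Imipramine replicate 1, so that its difference of -3.03 (SE 1.25, limma adjusted p = 0.12) rests on 2 measured TBI rats and 1 not above background, and was -2.37 without the latter. Ndrg2 (a member of the N-myc downstream-regulated family that is abundant in astrocytes) was at 4.42 and 4.26 in Sham and at 3.55, 4.21 and 4.15 in TBI. No TBI rat reached the Sham range, and the difference was -0.37 (SE 0.19, limma adjusted p = 0.204), or -0.16 without TBI replicate 1.

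All 12 injured rats, treated or not, were also set against the range of the 2 Sham rats. Gjb6, Aldh1l1, S100b probe 2 and Aldoc probe 2 were below both Sham rats in 12 of 12 injured rats, Aldoc and Ndrg2 in 11 of 12, Gja1 and S100b in 9 of 12, and the main probe of Slc1a3 in 8 of 12. In all, 7.59% of the probes were below both Sham rats in every injured rat. Aqp4 probe 3 and Slc1a3 probe 2 were above both Sham rats in 12 of 12, as were 12.1% of all probes. The main probes of Slc1a2, Aqp4 and Glul were below both Sham rats in only 1, 1 and 2 of the 12 and above both in 4, 7 and 4. These counts share the same 2 Sham arrays on 1 slide. The share of all probes was taken only for 12 of 12. The smaller counts therefore have no background beside them and are descriptions only.

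The promoters of Aldoc and Aldh1l1 are shown because these genes were below both Sham rats in 11 and 12 of the 12 injured rats and have 1 annotated start each in RefSeq on rat assembly GRCr8, where Gjb6 and Ndrg2 have 2. The 250 bases before the start are printed 5′ to 3′ in the direction of the gene, with capitals for matches to the letters searched.
Aldoc (chr10:63715294-63715543, plus strand): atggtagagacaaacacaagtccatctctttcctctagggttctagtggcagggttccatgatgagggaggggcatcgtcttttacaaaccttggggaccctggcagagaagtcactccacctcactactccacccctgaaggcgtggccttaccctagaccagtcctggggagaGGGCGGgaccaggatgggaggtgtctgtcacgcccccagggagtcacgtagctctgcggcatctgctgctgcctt
Aldh1l1 (chr4:124616970-124617219, plus strand): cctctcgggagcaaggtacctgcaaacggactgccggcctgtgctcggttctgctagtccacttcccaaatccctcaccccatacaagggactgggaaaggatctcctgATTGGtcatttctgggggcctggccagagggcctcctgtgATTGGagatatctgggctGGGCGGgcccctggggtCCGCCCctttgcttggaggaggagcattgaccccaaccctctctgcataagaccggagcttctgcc

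Both strands were searched for 5 short motifs of the core promoter or of factors known from astrocytes. The GC box was searched as GGGCGG. The second motif was the CCAAT box, searched by the letters of its name, and the third was the TATA box, for which the letters were TATAAA. The half-site of nuclear factor I was taken as TTGGC, which can overlap a CCAAT box read on the other strand. Sites of STAT factors were searched for with the pattern TTCNNNGAA. The Aldoc window held 1 GC box, beginning 75 bases before the start. The Aldh1l1 window held 2 GC boxes and 2 CCAAT boxes. A GC box occurs in 30.5% of 33469 such windows of rat genes and a CCAAT box in 34% of them, and neither printed window held a TATA box (12.9% of all windows), a nuclear factor I half-site (40.3%) or a STAT site (7.67%). Over the 17 annotated starts of the 10 genes, a GC box was found for 6 genes, a nuclear factor I half-site for 6, a CCAAT box for 4, a TATA box for 1 (Ndrg2) and a STAT site for 0. A match of letters describes the sequence and is not a measured binding site.

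The second question is whether an antidepressant changed these genes in injured rats. Against TBI, 0 of the 10 main probes passed the adjusted threshold with imipramine, Prozac or Zoloft. The threshold was passed by 2.85%, 0.00577% and 1.38% of all kept probes in these 3 comparisons. At an unadjusted p under 0.05 there were 1, 1 and 2 genes, all higher than in TBI, against 19.4%, 9.86% and 8.91% of all probes. Glul was among them each time. The 3 comparisons share the TBI arrays. Imipramine and Zoloft arrays were on another slide than TBI, as were the Prozac arrays apart from replicate 1, so that slide and drug are mixed here. The median difference of the 10 genes was 0.00, 0.09 and 0.13, and that of all kept probes was 0.20, 0.15 and 0.01, so that with imipramine and Prozac the whole array lay above TBI on this scale. Without TBI replicate 1 the medians of the 10 genes were -0.18, -0.09 and -0.07, and those of all kept probes were 0.09, 0.03 and -0.11. The 10 genes then lay below the whole array with imipramine and Prozac and above it with Zoloft. Other scalings were quantile normalization, both other 75th percentiles and the authors' table. Under them the medians of the 10 genes ran from -0.22 to -0.16 with imipramine and from -0.08 to 0.02 with Prozac. With Zoloft they ran from 0.09 to 0.12. The medians of all kept probes lay between -0.03 and 0.04 under these scalings.

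Glul had the highest difference of the 10 main probes with each drug. It was at 1.83, 1.76 and 1.92 with imipramine, at 1.46, 1.59 and 1.75 with Prozac and at 1.93, 1.75 and 1.94 with Zoloft. The TBI rats, as given above, were at 0.74 to 1.46, so that no imipramine- or Zoloft-treated rat reached down to TBI, while the lowest Prozac-treated rat was level with the highest TBI rat at 1.46. The log2 differences were 0.69 with imipramine (SE 0.18, limma adjusted p = 0.0625), 0.45 with Prozac (SE 0.18, limma adjusted p = 0.439) and 0.73 with Zoloft (SE 0.18, limma adjusted p = 0.0688). Relative to the median of all probes they were 0.49, 0.30 and 0.71. Groups that did not overlap with a higher drug group were seen for 25.2%, 14.9% and 8.58% of all probes.

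The Glul difference with Zoloft passed the threshold under quantile normalization (0.67, adjusted p = 0.0237), under both other 75th percentiles (0.71 and 0.68), under normexp background correction (0.77, adjusted p = 0.042) and in the authors' table (0.71, adjusted p = 0.0237). That with imipramine passed under normexp (0.82, adjusted p = 0.0215) and not under the other scalings. Without TBI replicate 1 the 3 differences were 0.49, 0.25 and 0.52, and 0 passed. Without TBI replicate 3 those with imipramine and Zoloft were 0.85 and 0.88, and both passed (adjusted p of 0.0397 and 0.0462). With slide as a fixed term, which rests on the 1 Prozac array that shared the TBI slide, they were 0.48, 0.31 and 0.51 (adjusted p of 0.846, 0.941 and 0.998). That Prozac rat, compared with TBI within slide 1, differed by 0.31.

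Gja1 was the other gene with an unadjusted p under 0.05, with Zoloft. Its levels were 2.12, 2.25 and 1.73 with Zoloft, 1.69, 2.18 and 1.96 with imipramine and 1.72, 1.76 and 1.84 with Prozac. Each drug group overlapped TBI, with 1 or more rats below the highest TBI rat. The differences from TBI were 0.49 (SE 0.19, limma adjusted p = 0.233), 0.40 (limma adjusted p = 0.272) and 0.23 (limma adjusted p = 0.713). They were 0.30, 0.21 and 0.04 without TBI replicate 1.

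**Figure D3:**
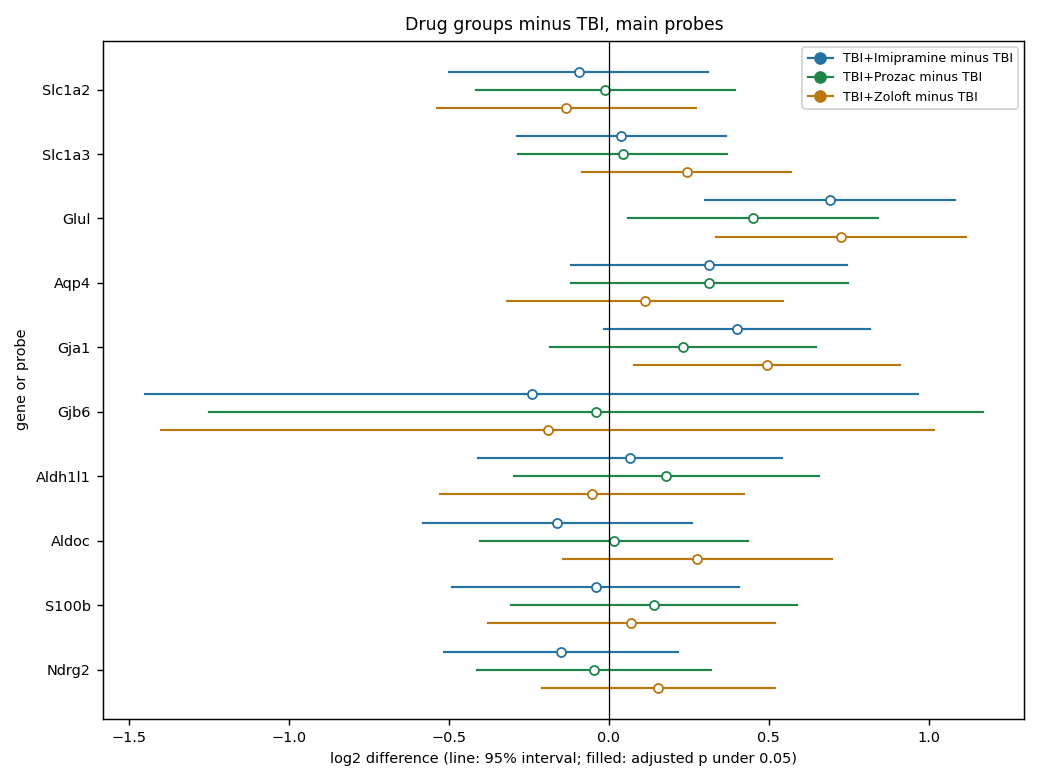
Log2 difference from TBI of each main probe (horizontal axis, with 95% interval) for the 3 drug groups. Points are open because 0 of the 10 genes passed an adjusted p of 0.05; Glul stands farthest to the right with each drug, at 0.69, 0.45 and 0.73.

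The other 8 genes lay between -0.24 and 0.31 of TBI with imipramine, between -0.05 and 0.31 with Prozac and between -0.19 and 0.28 with Zoloft. Their 95% intervals all included 0. For Gjb6 the intervals ran from -1.45 to 0.97 with imipramine and from -1.40 to 1.02 with Zoloft, so that differences within these ranges were not resolved. Zoloft-treated rats disagreed most on this gene, at 0.58, 0.33 and -2.26. Zoloft replicate 3 was also the lowest of all arrays for Aldh1l1, at -2.07.

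The third question is how treated injured rats stood against Sham. In TBI+Imipramine 1 of the 10 main probes passed, in TBI+Prozac 0 and in TBI+Zoloft 0, where 23.4%, 14.9% and 5.95% of all kept probes did. At an unadjusted p under 0.05 there were 4, 2 and 2 genes, all lower than Sham, against 7.59%, 7.15% and 10% of all probes. The medians of the 10 genes were -0.36, -0.36 and -0.17 while those of all probes were 0.18, 0.14 and 0.00. The 3 drug groups were compared with the same Sham arrays as TBI.

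Aldoc was the gene that passed. It was at 3.99, 3.98 and 4.26 with imipramine, all below the Sham values of 4.95 and 4.60, and it fell by 0.70 in log2 terms (SE 0.22, limma adjusted p = 0.0345), as 3.6% of all kept probes did in this comparison. Aldoc probe 2, at 2.34, 2.28 and 2.35 against 2.99 and 2.74 in Sham, fell by 0.55 (SE 0.17, limma adjusted p = 0.0353), a call that was lost when any 1 of the 5 rats was left out (adjusted p of 0.0575 to 0.225). With Prozac Aldoc was at 4.26, 4.25 and 4.24, a difference of -0.52 (SE 0.22, limma adjusted p = 0.124), and with Zoloft at 4.70, 4.50 and 4.34, a difference of -0.26 (SE 0.22, limma adjusted p = 0.516). Without Sham replicate 1 these were -0.35 and -0.08. The Zoloft group overlapped Sham and the other groups did not. The imipramine call was lost without Sham replicate 1 (-0.52, adjusted p = 0.233), without Sham replicate 2 (-0.88, adjusted p = 0.0586) and without imipramine replicate 1 or 2 (adjusted p of 0.0991 and 0.108).

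More genes passed when arrays were scaled in another way. Under quantile normalization, under both other 75th percentiles and in the authors' table, Slc1a3, Aldh1l1, S100b and Ndrg2 joined Aldoc as lower with imipramine than in Sham, which made 5 of 10. Under these scalings 29.5% to 30.4% of all kept probes passed in this comparison, against 23.4% in the main fit. Of those calls 46.1% to 65.1% were higher, against 84.6% in the main fit. The median of all probes lay between -0.07 and 0.06 instead of at 0.18.

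**Figure D4:**
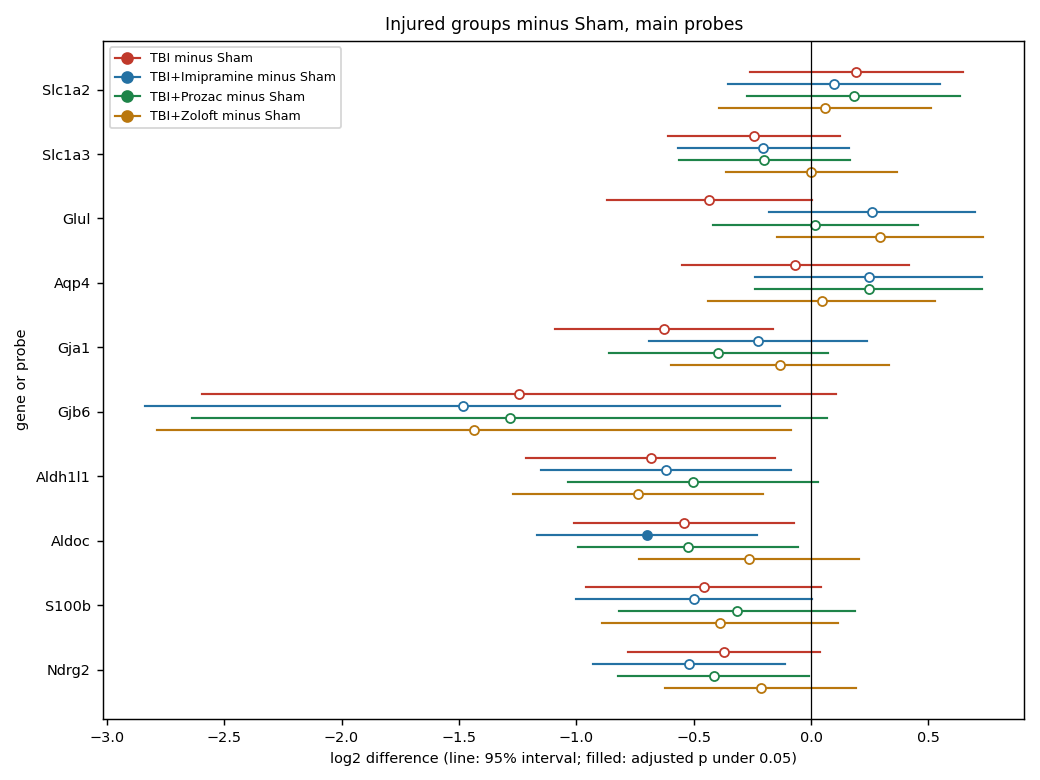
Log2 difference from Sham of each main probe (horizontal axis, with 95% interval) for the 4 injured groups. The filled point is Aldoc with imipramine, at -0.70; Gja1, Gjb6, Aldh1l1, Aldoc, S100b and Ndrg2 lie left of 0 in all 4 groups, and Slc1a2 lies at 0.06 to 0.19.

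Ndrg2 was at 3.72, 3.78 and 3.96 with imipramine, at 4.02, 3.80 and 3.95 with Prozac and at 4.27, 4.03 and 4.07 with Zoloft. Only Zoloft replicate 1 reached the Sham range. The differences were -0.52 (limma adjusted p = 0.0642), -0.42 (0.16) and -0.21 (0.547). Aldh1l1 was at -1.51, -1.48 and -1.48 with imipramine, at -1.69, -1.16 and -1.29 with Prozac and at -1.17, -1.59 and -2.07 with Zoloft, all below both Sham rats. Its differences were -0.62 (limma adjusted p = 0.0878), -0.50 (0.191) and -0.74 (0.0984). Without Zoloft replicate 1 the last was -0.96 and passed the threshold (limma adjusted p = 0.0373).

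Gjb6 was at -0.70, -0.21 and -0.59 with imipramine and at -0.43, -0.18 and -0.29 with Prozac. It differed from Sham by -1.48 (SE 0.62, limma adjusted p = 0.105), by -1.28 (0.189) and, with Zoloft, by -1.44 (0.197). The Zoloft value was -0.53 without Zoloft replicate 3, whose level of -2.26 made up most of it. S100b was at 3.62, 3.52 and 3.85 with imipramine, at 4.04, 3.62 and 3.88 with Prozac and at 4.03, 3.63 and 3.67 with Zoloft, and 1 rat each of the Prozac and Zoloft groups lay in the Sham range. Its limma adjusted p was 0.139, 0.393 and 0.352.

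Slc1a3 probe 2 and Aqp4 probe 3 were above Sham with imipramine and Prozac and did not pass the threshold with Zoloft. Slc1a3 probe 2 was at -1.77, -1.66 and -1.79 with imipramine and at -1.40, -2.07 and -1.44 with Prozac, and rose over Sham by 1.05 (SE 0.20, limma adjusted p = 0.0032) and 1.15 (SE 0.20, limma adjusted p = 0.004). With Zoloft it was at -2.37, -2.48 and -2.23, a difference of 0.43 (SE 0.20, limma adjusted p = 0.226). Aqp4 probe 3 was at -2.89, -2.88 and -2.70 with imipramine, at -2.75, -3.08 and -2.79 with Prozac and at -2.79, -3.53 and -3.66 with Zoloft. Its differences from Sham were 1.26 (limma adjusted p = 0.0069), 1.21 (0.0135) and 0.76 (0.127). The Prozac call was lost without either Sham rat (adjusted p of 0.0864 and 0.068) and under normexp (0.68, adjusted p = 0.0526), and the Zoloft value was 0.48 without Zoloft replicate 1. Normexp gave 0.73 with imipramine (adjusted p = 0.0288). The main probes of these genes lay between 2.47 and 2.98 (Aqp4) and between 3.25 and 3.75 (Slc1a3) in treated rats, and neither passed the threshold against Sham with any drug.

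A moderated F test in limma asked whether the 3 drug groups differed from each other. It gave 0 of the 10 main probes past the adjusted threshold, which 3.18% of all kept probes passed, and the smallest unadjusted p of a main probe was 0.114, for Aldoc. Slc1a3 probe 2, lower in all 3 Zoloft rats than in the other treated rats, had the smallest p of the 16 probes (limma F test adjusted p = 0.0647).

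The genes most like Aldoc in profile were sought over all named kept probes, as those with the smallest root mean square difference of log2 levels after centring on the mean of the 14 arrays. They were Hdac11 (0.09), Ndrg2 (0.10) and Elavl4 (0.13). Ndrg2 is itself one of the 10 genes. For Aldoc probe 2 they were Dact3, Kcnt2 and Dcxr (0.10 to 0.11), for Slc1a3 probe 2 Sbds, Ncs1 and Anp32b (0.13 to 0.14), and for Aqp4 probe 3 Tubb2b, Rom1 and Pold1 (0.16 to 0.21). Other probes of the same gene were left out of this search.

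Other astrocyte genes were taken from 6 lists by function, of which 54 of 61 genes were kept. In TBI against Sham 5 of the 54 passed, all lower (9.26%, against 8.32% of all probes that fell), with a median of -0.24. Cbs, the cystathionine synthase of astrocytes, fell by 1.16 (SE 0.25, limma adjusted p = 0.0078). Mfge8, a secreted bridge for phagocytosis, fell by 0.92, and Bcan, the matrix proteoglycan brevican, by 0.83 (limma adjusted p of 0.0242 and 0.0196).

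These 3 genes were those that passed among the 17 measured for metabolism and secreted proteins. The lists for glutamate, glutamine and GABA handling (9 genes, median -0.42), connexins and partners (7 genes, median 0.10) and transcription factors and receptors (11 genes, median -0.12) had 0 calls each. Against TBI 0 of the 54 passed with any drug. Against Sham 8 passed with imipramine, 3 with Prozac and 7 with Zoloft, which is 14.8%, 5.56% and 13% of the 54, beside 23.4%, 14.9% and 5.95% of all kept probes. Of these genes, 2 with imipramine (Gpam and Fabp7) and 1 with Prozac (Gpam) were higher and the rest lower. Calls over all kept probes were mostly higher instead (84.6%, 78.8% and 69.8% of them). Only 3.6% of all kept probes fell with imipramine.

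**Figure D5:**
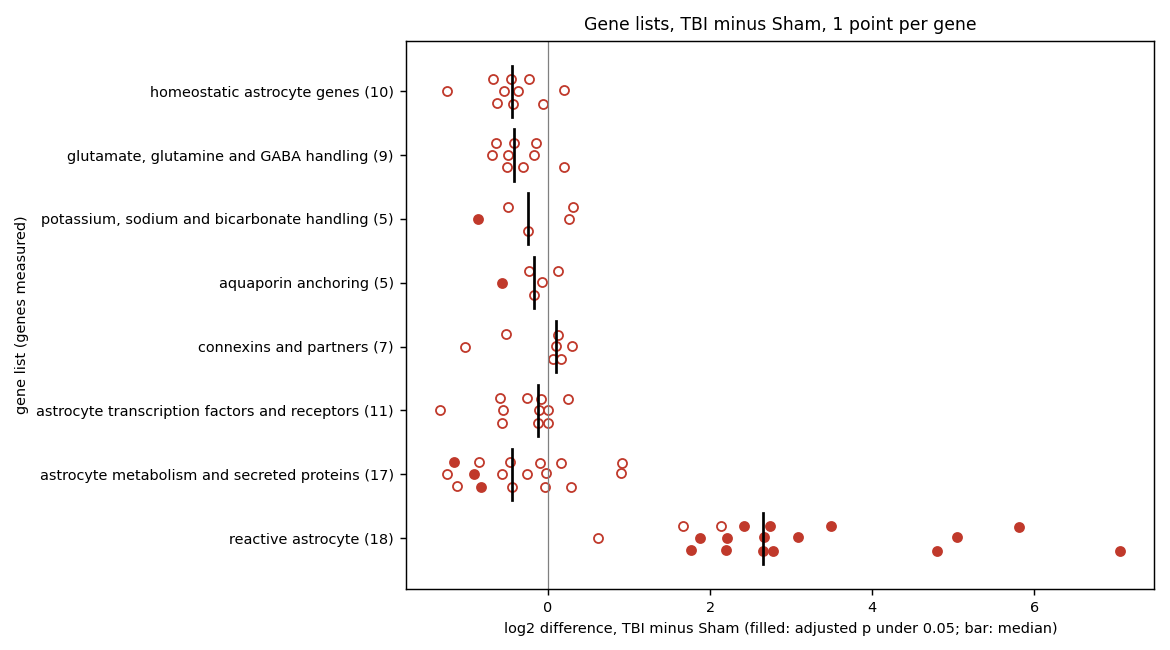
Log2 difference between TBI and Sham (horizontal axis) of each gene in the 10 homeostatic genes and in 7 lists of related genes (vertical axis, number measured in brackets), with a bar at the median. The reactive astrocyte list lies to the right of 0 with a median of 2.66, and the homeostatic genes have a median of -0.45.

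Reactive astrocyte genes went up in the same hippocampi. Of 18 measured, 15 rose in TBI against Sham and 0 fell, against 8.3% of all probes that rose, with a median difference of 2.66. Those with the smallest adjusted p were Timp1 (5.04), Nes (2.74), S100a10 (2.42) and S100a6 (2.67). Gfap was at 0.41 and 1.15 in Sham and at 2.00, 3.07 and 2.89 in TBI, and rose by 1.88 (SE 0.45, limma adjusted p = 0.0142). Vim rose by 3.09 (SE 0.33) and Serpina3n, an acute-phase protease inhibitor, by 5.82 (SE 1.11). Against TBI 0 of the 18 passed with any drug. Astrocytes share many genes of this list with microglia, endothelium and infiltrating cells.

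Other cell types were read from the same arrays. The summed level of the 10 homeostatic genes, on the linear scale, was 89.4 to 101 in Sham and 53.5 to 86.4 in TBI. It was 67.5 to 76.8 with imipramine, 70.0 to 78.5 with Prozac and 76.2 to 93.8 with Zoloft. The lowest TBI sum, 53.5, came from TBI replicate 1. The bright probes of Aldoc, Ndrg2, S100b and Slc1a3 made up most of this sum. Such sums compare arrays within 1 list and do not weigh its genes equally. The oligodendrocyte markers summed to 77.7 to 92.3 in Sham and 46.7 to 77.5 in TBI, and Mobp, a myelin gene, was the one that fell. Neuronal markers summed to 11.8 to 12.4 and 9.41 to 13.1, with a fall in Syt1. Microglial markers summed to 3.19 to 4.0 in Sham and 4.73 to 5.48 in TBI, with a rise in Itgam. Endothelial markers summed to 2.04 to 2.22 and 1.94 to 2.72, with a rise in Cldn5 and a median difference of 0.62. Over all kept probes 8.3% rose and 8.32% fell in TBI against Sham. With imipramine and Prozac 4 and 3 of the 6 microglial markers were higher than in Sham, against 1 of 6 with Zoloft. All kept probes went the same way: 23.4%, 14.9% and 5.95% passed against Sham with imipramine, Prozac and Zoloft. Of those calls 84.6%, 78.8% and 69.8% were higher. The oligodendrocyte markers had a median difference from Sham of -0.61 with Zoloft. The part of these cell types in the levels of the homeostatic genes was not tested.

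Choroid plexus transcripts varied widely between rats of the same group. Its markers summed to 0.61 and 29.3 in the 2 Sham rats and ranged from 0.22 to 107 in treated rats. Ttr (transthyretin), its defining transcript, was at -0.83 and 4.86 in Sham and between -0.68 and 4.83 in TBI. Only 2 or 3 of the 8 markers were above background on every array of any 1 group. Sham replicate 2, with the higher Ttr, had lower levels than Sham replicate 1 for Aldoc, Gjb6, Glul, Ndrg2, S100b and Slc1a2 and higher levels for Aqp4, Gja1, Slc1a3 and Aldh1l1, and the part of choroid plexus in these values was not tested.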

How the data were processed

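Gene expression was measured on 14 1-colour Agilent arrays; miRNA arrays were not used here. The authors read each slide with Agilent Feature Extraction, which removed background and, per the file headers, wrote each spot's brightness as linear intensity, with flags of another kind (0 or 1). The deposited series table holds their scaled intensity values and was an alternative. Processed signals of spots without an outlier flag were averaged per probe, divided by the array's 75th percentile over probes above background, and log2 was taken. Probes above background (over 0.5 of spots flagged so) on all arrays of at least 1 group were kept. All 5 groups entered 1 fit with lmFit and eBayes (limma 3.58.1, R 4.3.3), two-sided, threshold 0.05, and the fit was first tested on simulated data. Accessions of 18635 probes matched RefSeq symbols (GRCr8). The main probe of a gene was the brightest unsaturated one. Named genes were the members, up to 4 list genes of smallest adjusted p per list in TBI against Sham, the nearest profiles, and Gfap, Vim, Serpina3n and Ttr; Gpam, Fabp7, Mobp, Syt1, Itgam and Cldn5 were named after their values were seen. Members and lists were chosen with earlier results of these data known. Normexp (offset 50) used median signals, since the files read here held no mean signal column. Replicate numbers showed no pairing of rats. Deviations from group means correlated at -0.23 to 0.23 over 26 same-numbered pairs of arrays. Over 52 pairs with different numbers the range was -0.25 to 0.25. Labels name rats singly, so spread is between rats. Some list genes are not reported here.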

Additional observations from a re-analysis of the deposited data

Results flagged for a closer look

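Of 112 genes in the lists, 3 (2.68%, against 3.18% of all kept probes) differed among the 3 drug groups in limma's moderated F test, and none of them is a homeostatic gene. Vim had mean log2 levels of 0.49 ± 0.48 with imipramine, 0.01 ± 0.25 with Prozac and -1.19 ± 0.18 with Zoloft (SD, n = 3 each; limma F test adjusted p = 0.0253), and every Zoloft rat was below every other treated rat. The adjusted p for Vim lay between 0.0138 and 0.13 over 20 alternatives, and 10 of them passed the threshold. Nfia, a transcription factor of astrocytes, was at -4.21 ± 0.08, -3.85 ± 0.11 and -4.88 ± 0.44 (limma F test adjusted p = 0.038), with adjusted p between 0.0234 and 0.174, and the call held in 5 of 20 alternatives. Csf1r, a receptor of microglia, was at -1.10 ± 0.21, -1.05 ± 0.17 and -1.89 ± 0.41 (limma F test adjusted p = 0.0452), with adjusted p between 0.0287 and 0.144, and the call held in 3 of 20 alternatives.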

How the results depend on the processing

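The number of homeostatic genes past the threshold in TBI against Sham, 0, became 6 with quantile normalization, 2 with the 75th percentile of all probes, with normexp, in the authors' table and with slide as a random block, and 1 with the 75th percentile over probes above background on all arrays (chosen after seeing the data) and with the methods' t-test unadjusted. Against TBI, the 0 calls with imipramine became 1 with normexp and with the unadjusted t-test; the 0 with Zoloft became 1 (Glul) with quantile normalization, both other percentiles, normexp, the authors' table and the unadjusted t-test. Against Sham, the 1 call with imipramine became 5 with quantile normalization, both other percentiles and the authors' table, 2 with normexp and the random slide block, 4 with the unadjusted t-test, and 0 with no filter on dim probes. Prozac went from 0 to 3 with quantile normalization, 4 with the percentile of all probes, in the authors' table and with the unadjusted t-test, 2 with the other percentile and 1 with normexp. Zoloft went from 0 to 2 with quantile normalization and 1 with normexp. With quantile normalization 25.8%, 30%, 18.9% and 12.6% of all kept probes passed against Sham in TBI, imipramine, Prozac and Zoloft. With the percentile of all probes these shares were 25.7%, 30.4%, 20.5% and 12.2%. In the authors' table they were 25.4%, 30.2%, 20.1% and 12%. With the other percentile they were 26.5%, 29.5%, 20.9% and 12.4%. With normexp they were 16.7%, 18.6%, 11.8% and 3.94%. With the random slide block 20.2% passed in TBI and 27% with imipramine. With no filter on dim probes 9.61% of all probes passed with imipramine. The unadjusted t-test called 3031, 5694 and 4134 of the 17322 kept probes in TBI, imipramine and Prozac. For Zoloft against TBI 4.64% to 4.96% passed with quantile normalization, both other percentiles and the authors' table. With normexp 1.37% passed for Zoloft against TBI and 2.1% for imipramine against TBI. The unadjusted t-test called 1406 probes for Zoloft against TBI and 2438 for imipramine against TBI. With the replicate block, imipramine against Sham had 0 calls, and the block changed no other count of homeostatic genes. Leaving out 1 rat at a time gave 0 to 1 calls for TBI against Sham, imipramine against TBI, Zoloft against TBI, imipramine against Sham and Zoloft against Sham; the call gained was Gja1 for TBI against Sham and Glul for both drugs against TBI, without TBI replicate 3. The Aqp4 difference between TBI and Sham, -0.07, became 0.50 with the mean of the gene's probes and ran from -0.29 to 0.13 without 1 rat. The Slc1a3 difference became 0.29 with the mean of the probes. Slc1a2 probe 2 became -0.16 with normexp and ran from -0.10 to 0.39 without 1 rat. The causes were not tested. Of 660 alternative values for single probes, 572 kept direction and side of the threshold, 60 passed it, 20 lost it and 8 changed sign. Against TBI these values cover only Gja1 and Glul, so sign changes of the other genes are not counted there. With Prozac the genes above TBI, 7 of 10, became 4 with the percentile of all probes and 10 without TBI replicate 3. With imipramine they went from 5 to 3 with the percentile of all probes. Precision is limited by 2 Sham rats on a slide of their own and by dim probes such as S100b probe 2.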
